A study of Gallus gallus with 6 samples.

Results

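C1QA, CSF1R and TLR4 are marker genes of macrophages and of Kupffer cells, the resident macrophages that line the liver sinusoids. They were taken by gene symbol from the deposited table of 1480 mRNAs, in which each of the 3 has 1 row. Livers of Arbor Acres breeder roosters, all deprived of feed for 12 hours, were compared between chicks of 1 day (immature livers) and adults of 40 weeks (mature livers). There were 6 RNA libraries. The 3 immature libraries were pools of RNA from 4 livers each, whereas the 3 mature libraries were made from single birds, so that 12 chicks and 3 adults were sampled. The RNA came from homogenised liver tissue, so all cell types of the organ contribute, and the groups differ in age and in the pooling of livers at once, which cannot be told apart. The comparison asks how the liver transcriptome differs before and after postnatal maturation.

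The table gives a group's FPKM (mapped fragments, scaled to transcript length and to the size of the library) as 1 value, as the authors computed it from the libraries of that group. No value per library, no read count and no spread between birds can be had from it, so no test is given, the depth behind each value is unknown, and every value below is the authors' group value. All 1480 rows had been called differentially expressed by the authors before deposit, and in all 1480 the FPKM of the groups differ by at least 2-fold in one direction or the other. That C1QA, CSF1R and TLR4 differ between the groups is therefore fixed by their presence in the table. A gene that is not listed has no value here and is not counted as unchanged. The table does not hold the genes that were not called, so it cannot give the share of all expressed genes that are listed. How many genes of a list were listed is therefore no result about that list.

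Kupffer cells clear particles, aged erythrocytes and gut-derived microbial products from portal blood. C1QA encodes the A chain of C1q, the recognition molecule of the classical complement pathway, which in mammals is made mainly by macrophages and dendritic cells. CSF1R is the receptor tyrosine kinase through which the cytokines CSF1 and IL34 keep macrophages alive and differentiated, and its transcription in mammals depends on the myeloid factor PU.1, the product of SPI1. TLR4 is the pattern recognition receptor for bacterial lipopolysaccharide, which it binds together with the co-receptor MD-2 (LY96), and it signals through MYD88 to NF-kB and the MAP kinases.

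All 3 genes were listed higher in mature than in immature livers, at very different levels. C1QA (ENSGALG00000021569; chromosome 21, 6064484 to 6066427) had 49.0 FPKM in the immature and 267.9 FPKM in the mature group, a ratio of 5.47. CSF1R (ENSGALG00000005725; chromosome 13, 12594406 to 12612831) had 13.2 FPKM in the immature and 51.5 FPKM in the mature group, a ratio of 3.92. TLR4 (ENSGALG00000007001; chromosome 17, 3566299 to 3572532) had 0.297 FPKM in the immature and 2.66 FPKM in the mature group, a ratio of 8.96. Each row is 1 assembled transcript that matched an annotated reference transcript in full, and the coordinates are those of the deposited locus. The study's methods name Galgal5 as the reference genome, whereas the table itself names no build and places 4 of its rows on a linkage group named as in older chicken assemblies, so the build of these coordinates is not settled. In bulk liver RNA, more cells of a type and more RNA per cell cannot be told apart.

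**Figure D1:**
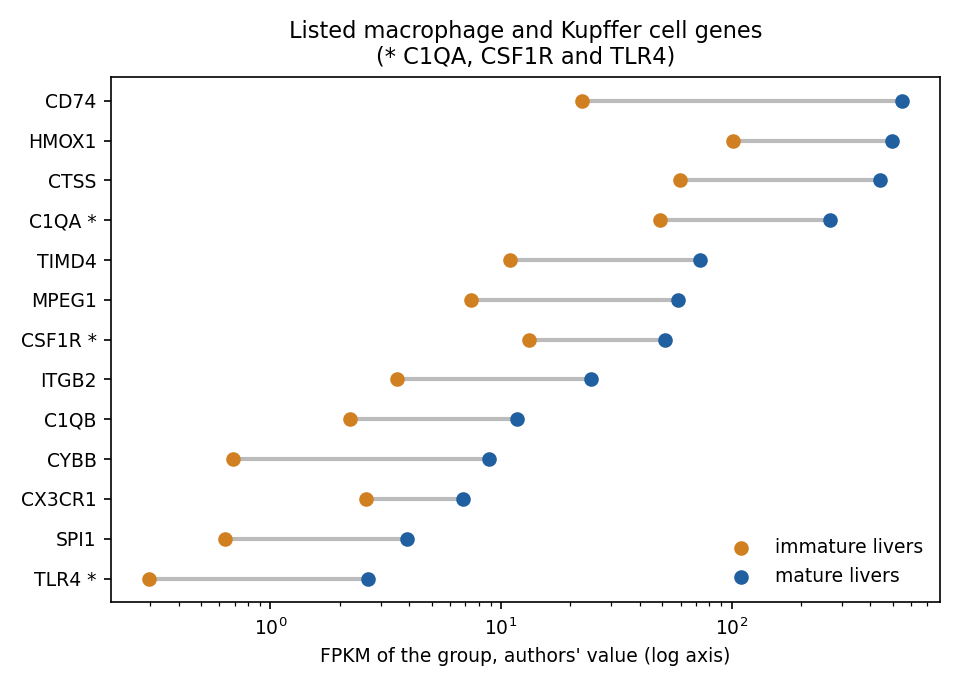
FPKM of the 13 listed genes of the macrophage and Kupffer cell list on a log axis, with 1 point for the immature and 1 for the mature group (the authors' group values, no error available) and a line joining them. C1QA runs from 49.0 to 267.9, CSF1R from 13.2 to 51.5 and TLR4 from 0.297 to 2.66 FPKM, and the mature point lies to the right for all 13 genes.

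The order of the levels was C1QA, CSF1R, TLR4 in both groups, and whether neighbours in this order differ beyond the spread between birds could not be assessed. The FPKM of C1QA was 3.72 times that of CSF1R in immature livers, and the ratio in mature livers was 5.20. Between CSF1R and TLR4 the ratio was 44.4 in immature livers and 19.4 in mature livers. Among the 1480 rows, 89.2% had a lower FPKM than C1QA in immature livers and 96.8% in mature livers. For CSF1R the shares were 76.5% and 89.2%. TLR4 stood above 9.93% of the rows in immature livers and above 42.2% in mature livers, so it lay below the median row at both ages.

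On log2(FPKM + 1), the differences of mature minus immature livers were 2.43 for C1QA, 1.89 for CSF1R and 1.496 for TLR4, which ranked 89, 157 and 267 among the 1480 rows from the most positive down. All 3 lay over 1 on this scale, and so did 35.9% of all rows. The table as a whole leaned towards mature livers, with 54.9% of the rows higher there and a median difference of 0.64. Of the rows past 1 in either direction, 532 were higher and 441 lower. After centring on the median, 222 were higher and 668 lower, and the differences relative to that median were 1.78 for C1QA, 1.25 for CSF1R and 0.85 for TLR4.

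The order of the differences among the 3 genes depended on the pseudocount. TLR4 had the smallest difference with 1 FPKM added, because its level in immature livers lies below that pseudocount. With 0.1 FPKM added the differences were 2.45 for C1QA, 1.96 for CSF1R and 2.80 for TLR4, and TLR4 came first, as it did in the plain ratios.

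**Figure D2:**
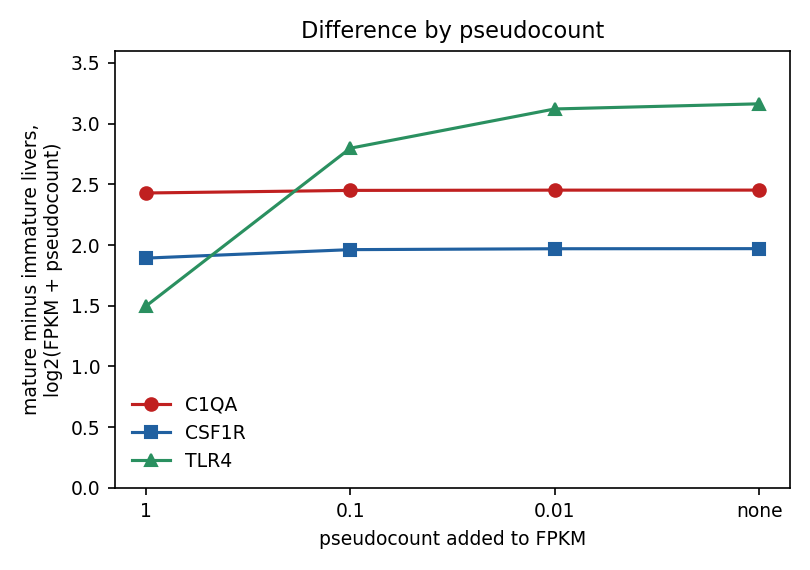
Difference of mature minus immature livers on log2(FPKM + pseudocount) for C1QA, CSF1R and TLR4 (y axis) at pseudocounts of 1, 0.1, 0.01 and none (x axis); lines join the values of 1 gene. C1QA and CSF1R stay near 2.4 and 1.9 to 2.0, while TLR4 goes from 1.496 at a pseudocount of 1 to 2.80 at 0.1.

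**Figure D3:**
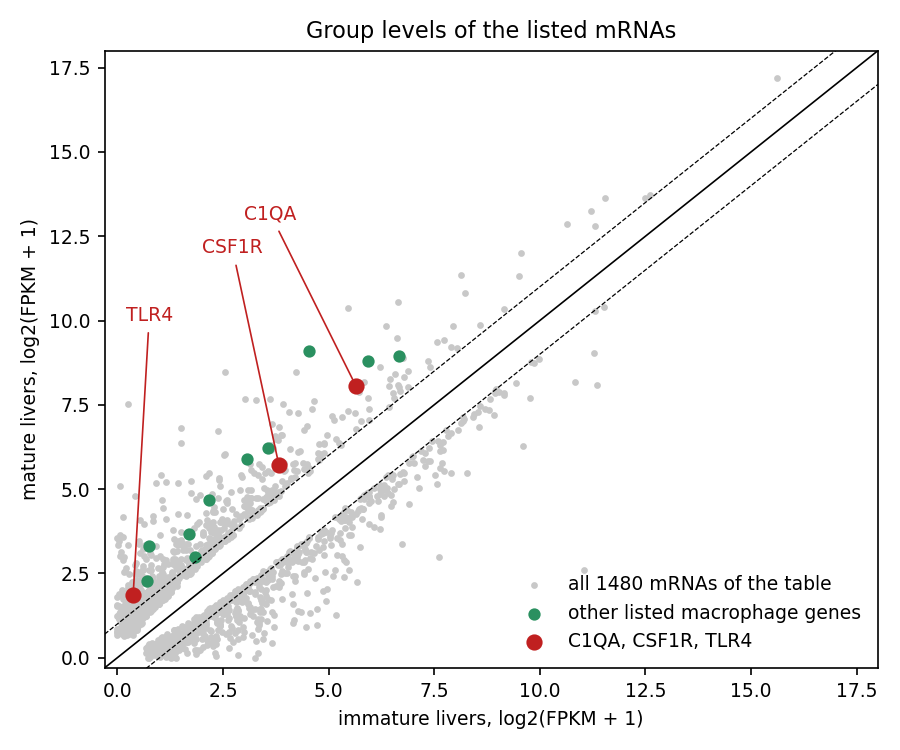
Level in mature livers (y axis) against immature livers (x axis), both as log2(FPKM + 1), for all 1480 mRNAs (grey), the other listed macrophage genes (green) and C1QA, CSF1R and TLR4 (red). The solid line marks equal levels and the dashed lines a difference of 1; every row lies off the solid line because the table holds only transcripts called by the authors, and the red and green points all lie above the upper dashed line.

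Of the 17 chicken genes whose RefSeq symbol (assembly GRCg7b) begins with C1Q, 3 were listed under that symbol: C1QA, C1QB and C1QBP. C1QB, the B chain that joins the A and C chains in C1q, had 2.22 FPKM in the immature and 11.7 FPKM in the mature group. Its ratio of 5.27 lies close to the 5.47 of C1QA. The level of C1QA was 22.1 times that of C1QB before maturation and 22.9 times after it. The proportion between these listed transcripts was thus nearly the same at both ages. The C1QB locus (ENSGALG00000004771; chromosome 21, 6058510 to 6064076) spans 5567 bases and ends 407 bases before that of C1QA, whose locus spans 1944 bases. RefSeq places C1QC, the gene of the remaining chain, between C1QB and C1QA, and C1QC was not listed under its symbol. The deposited loci leave only 407 bases there, so whether the C1QB locus also covers C1QC could not be settled.

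C1QBP went the other way. It encodes a mainly mitochondrial protein named for its binding to C1q, and had 154.7 FPKM in the immature and 66.1 FPKM in the mature group, which is 2.34 times as much in the immature group (log2 difference -1.21; chromosome 19, 3430894 to 3433418). Its symbol begins like those of the C1q chains, but it is not a chain of C1q and is widely expressed.

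Of the 10 chicken genes with a RefSeq symbol beginning with TLR, TLR4 alone was listed under its symbol. TLR1A, TLR1B, TLR2, TLR2A, TLR3, TLR5, TLR7, TLR15 and TLR21 were not listed under these symbols, and their synonyms were not searched. LY96 and CD14, the co-receptors of TLR4, and the adaptor MYD88 were not listed by symbol or synonym. Rows without a gene symbol could not be matched. No value can be given here for any of them.

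The macrophage and Kupffer cell list holds 37 genes, of which 13 were listed, all higher in mature livers and all past a difference of 1, against 35.9% of all rows past 1 in this direction. The median difference of the 13 was 2.43, against 0.64 over all rows. After centring 10 of the 13 were past 1, against 15.0% of all rows. The list was chosen with earlier results of these data known, so these counts are a description only. Without C1QA, CSF1R and TLR4, which the list contains, all 10 remaining genes were higher and past 1, with a median of 2.52. The receptors among them include TIMD4, a phosphatidylserine receptor of resident macrophages that binds apoptotic cells, at 10.9 and 73.2 FPKM in immature and mature livers. CX3CR1, a chemokine receptor of monocytes, had 2.59 and 6.86 FPKM and the smallest difference of the list (1.13). ITGB2, the beta chain of leukocyte integrins, had 3.52 and 24.5 FPKM.

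Effector genes of phagocytes were listed higher as well. MPEG1, a pore-forming protein of macrophages, had 7.40 FPKM in the immature and 58.3 FPKM in the mature group. CTSS, a lysosomal protease that cleaves the invariant chain, had 60.0 and 441.9 FPKM. CYBB, listed under the symbol Nox2, encodes the catalytic subunit of the phagocyte NADPH oxidase and had 0.688 and 8.90 FPKM. HMOX1, which degrades heme, had 100.8 and 495.8 FPKM.

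The largest difference in the list belonged to CD74, the invariant chain of class II molecules, which the table lists under the symbol Ii in 2 rows. The row with more FPKM had 22.4 and 548.4 FPKM (4.55), and the other had 7.06 and 204.6 FPKM. Its deposited locus (12336944 to 12488448) is the nearest listed mRNA to CSF1R on chromosome 13, at a distance of 105957 bases. Whether this locus covers CD74 alone was not settled. CD74, HMOX1 and CTSS together made up 67.0% of the summed FPKM of the 13 genes in immature and 74.5% in mature livers. By plain ratio TLR4 came next after CD74 and CYBB at the top of the 13 genes, and CSF1R had the lowest ratio after CX3CR1.

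Several genes of this list are also known from other leukocytes or from hepatocytes, such as ITGB2, CD74 and HMOX1. Of the 13 genes, 6 (C1QA, C1QB, CSF1R, SPI1, TLR4 and TIMD4) also belong to a pathway list used here, and to no other cell type list. That follows from how the lists were drawn up and does not show expression by macrophages alone. The remaining 7 of the 13 were all higher by more than 1, against 35.9% of all rows. After centring CX3CR1, 1 of these 7, was at 0.49 and no longer past 1, against 15.0% of all rows past 1. The 7 include ITGB2, CD74 and HMOX1, so this count cannot address the expression of those genes in other cells. The 24 genes of the list that were not listed include CD14, MARCO, CD163, MERTK and VSIG4, which are also used as markers of Kupffer cells or other macrophages.

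Markers of other blood cells were listed higher in mature livers beside the macrophage genes. Of 24 genes of T and natural killer cells 9 were listed, all higher (CCR7 was at -0.11 after centring), and 7 passed 1, against 35.9% of all rows. The summed level of the 9 was 11.8 FPKM in the immature and 113.1 FPKM in the mature group, of which IL2RG gave 8.41 and 43.9 FPKM. CD3D, a CD3 subunit of T cells, had 0.872 and 35.4 FPKM. Heterophils, which take the place of neutrophils in birds, had 6 of 18 genes in the table, all higher and all past 1 (35.9% of all rows). Their summed level was 8.38 and 93.8 FPKM, of which LYG2 gave 4.80 and 65.0 FPKM. After centring 5 of the 6 were past 1, against 15.0% of all rows. Of 17 genes of B and plasma cells 3 were listed, all higher (BLK was at -0.14 after centring). Of the 3, 2 passed 1 (35.9% of all rows), and 1 did after centring (15.0% of all rows). Their summed level was 0.601 FPKM in the immature and 12.5 FPKM in the mature group. JCHAIN, the joining chain of polymeric immunoglobulins listed as IGJ, had 0.0143 and 9.12 FPKM. The summed level of the 13 macrophage genes was 273.6 FPKM in the immature and 1996 FPKM in the mature group. CD74, HMOX1 and CTSS made up 67.0% and 74.5% of it. The lists also differ in number of genes, so these sums are no measure of cell numbers. No listed marker of these blood cells was at 0 in either group, and the part of these cells in the values of C1QA, CSF1R and TLR4 was not tested.

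The listed genes of other liver cells went in mixed directions, and those listed of erythroid, bile duct and proliferating cells were lower. Of 22 endothelial and sinusoidal genes 3 were listed. LYVE1, a hyaluronan receptor, and VWF, the von Willebrand factor, were higher by 1.11 and 1.20 (both under 1 after centring), and STAB2, a scavenger receptor of sinusoidal endothelium, was lower (-0.92). Of 19 stellate cell and fibroblast genes, RGS5 was higher and COL1A2 lower. Of 21 hepatocyte genes 7 were listed, 4 higher past 1 (35.9% of all rows) and 3 lower past -1 (29.8%). After centring 1 was higher past 1 (15.0% of all rows) and 3 were lower past -1 (45.1%). Among the 7 were HPX, the heme-binding plasma protein hemopexin, at 2521 and 7144 FPKM, and AHSG, the plasma protein fetuin, at 2625 and 269.3 FPKM. The 7 genes ranged from 18.4 to 2625 FPKM in the immature and from 4.22 to 7144 FPKM in the mature group, and ALB and APOA1 were not among them. Of 19 erythroid genes 2 were listed, HBE1 and TFRC, both lower in mature livers. Their summed level was 39.7 and 7.42 FPKM, of which TFRC gave 35.7 and 7.33 FPKM. Of 13 cholangiocyte genes 2 were listed, CDH1 and KRT8, both lower. With 2 listed genes each, the erythroid and cholangiocyte lists are too short to describe these cell types. Of 27 genes of proliferating cells 19 were listed, all lower, and 17 were below -1, against 29.8% of all rows below -1, with a summed level of 259.5 and 24.1 FPKM.

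**Figure D4:**
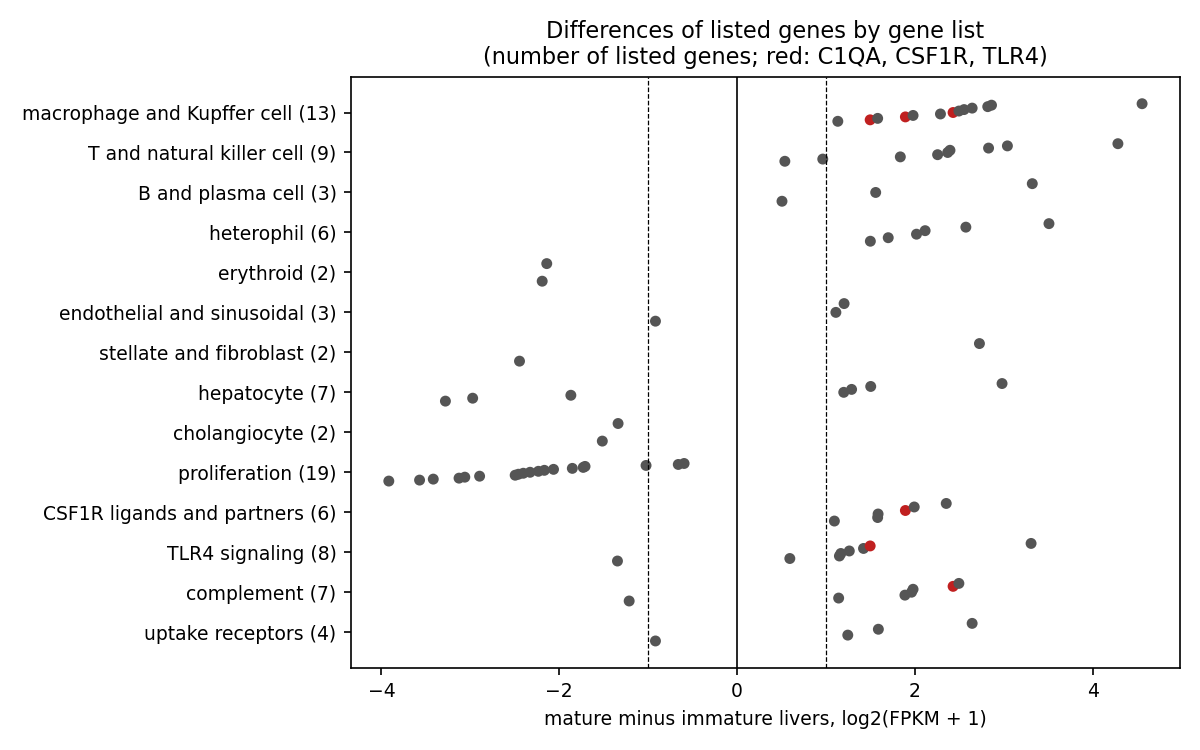
Difference of mature minus immature livers on log2(FPKM + 1) (x axis) for each listed gene of 14 gene lists (y axis; the number of listed genes in brackets), with C1QA, CSF1R and TLR4 in red and dashed lines at -1 and 1. The genes of the macrophage, T and natural killer cell, B cell and heterophil lists all lie right of 0 (CCR7 and BLK did not after centring on the median), and those of the erythroid, cholangiocyte and proliferation lists left of it.

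Around CSF1R, 6 of 30 genes of its ligands and partners were listed, CSF1R included, all higher in mature livers and past 1 (median difference 1.74), against 35.9% of all rows past 1. After centring 3 of the 6 were past 1, against 15.0% of all rows. SPI1 at 0.94, STAT3 at 0.94 and IL34 at 0.45 were not. Without CSF1R, all 5 remaining genes were higher and past 1, with a median difference of 1.59. After centring 2 of these 5 were past 1. IL34, which binds CSF1R, had 1.80 FPKM in the immature and 4.99 FPKM in the mature group, while the other ligand gene, CSF1, was not listed. SPI1, the gene of PU.1, had 0.635 and 3.89 FPKM, a ratio of 6.12. Of the signaling partners, the Src family kinase LYN had 2.26 and 11.9 FPKM and the phosphatase PTPN6, which dampens receptor signals in blood cells, 4.22 and 25.7 FPKM. The transcription factor STAT3 had 3.90 and 13.7 FPKM. LYN, PTPN6 and STAT3 act in many cell types or receptors besides macrophages and CSF1R.

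Around TLR4, 8 of 71 genes were listed, TLR4 included, of which 7 were higher (k60 was at -0.051 after centring), 6 past 1, and 1 lower (median difference 1.21), against 35.9% of all rows past 1. After centring NFKBIA alone of the 8 was higher past 1, against 15.0% of all rows. Without TLR4, 6 of 7 were higher and 5 were past 1. CD180, a TLR4 homologue that restrains the response to lipopolysaccharide in mouse macrophages, had 0.760 FPKM in the immature and 3.71 FPKM in the mature group. NFKBIA, the inhibitor that holds NF-kB in the cytoplasm and is itself induced by it, had 3.51 and 43.6 FPKM (3.31). The related inhibitor NFKBIE had 0.465 and 2.51 FPKM and the NF-kB subunit REL 2.32 and 6.38 FPKM. FOS, a subunit of the transcription factor AP-1, had 2.38 and 6.58 FPKM. The chemokine IL8L1, listed as k60, had 0.152 and 0.737 FPKM, with a difference of 0.59. MAP2K6, a kinase that activates p38, was the lower gene, at 4.52 and 1.17 FPKM (-1.35).

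TLR4 carries 4 KEGG terms in the deposited annotation. Under Toll-like receptor signaling 4 rows were listed, all higher except k60 after centring: TLR4, k60 and the interferon receptor genes IFNAR1 and IFNAR2. Under Phagosome 15 rows were listed, 11 higher and 4 lower. TLR4 is counted under both terms, and of all rows 54.9% were higher. The higher rows include ITGB2, Nox2, CTSS and NCF4, a cytosolic subunit of the phagocyte oxidase with 0.455 and 3.75 FPKM. The lower rows were TUBB3, TUBB4B, RAB7B and THBS4. Under Salmonella infection 5 rows were listed, 4 higher and 1 lower. Under Influenza A 17 rows were listed, 14 higher and 3 lower. Before centring, the higher rows of these last terms include TLR4 and k60. These counts cover only rows to which the deposited annotation gives the term. NFKBIA, FOS and MAP2K6 were listed without the Toll-like receptor term, and MAP2K6 was lower. CYBA, LAMP1 and TFRC were listed without the Phagosome term, and TFRC was lower. The KEGG terms were looked up after the values were seen.

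Around C1QA, 7 of 43 complement genes were listed by symbol, C1QA included (median difference 1.96). Of the 7, 6 were higher and past 1 (35.9% of all rows) and C1QBP was lower. After centring 5 of the 7 were higher past 1, against 15.0% of all rows. Without C1QA, 5 of the 6 remaining genes were higher and past 1 (median difference 1.92), and 4 after centring. Rows without a gene symbol could not be matched to the list. Among such rows, ENSGALG00000002431 (81.2 FPKM in immature and 906.6 in mature livers) and ENSGALG00000014659 (61.5 and 132.2 FPKM) are annotated to complement activation. C1S, a serine protease of the C1 complex, in which C1q is the recognition part, had 260.1 FPKM in the immature and 575.1 FPKM in the mature group. C5 and C7, components of the terminal pathway, had 10.8 and 45.0 FPKM and 6.60 and 41.8 FPKM. CFD, a protease of the alternative pathway, had 245.1 and 909.0 FPKM. Of these, C1S, C5 and C7 are known in mammals as products of liver or stromal cells rather than of macrophages alone. Setting aside 116 rows whose functional annotation was not used here, C1QA was the only row annotated to the classical pathway of complement activation.

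Among receptors and bridging proteins for the uptake of C1q-tagged or apoptotic material, 4 of 27 genes were listed. Of these, 3 were higher past 1, against 35.9% of all rows. After centring 1 was, against 15.0% of all rows. TIMD4 and its neighbour HAVCR1, members of the TIM family whose loci on chromosome 13 lie 516 bases apart, were both higher. HAVCR1 had 0.663 FPKM in the immature and 2.94 FPKM in the mature group. GAS6, the bridging ligand of the receptors MERTK, AXL and TYRO3, had 1.29 and 5.90 FPKM. STAB2 was lower.

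Within 100 kb of the 3 genes, the window the study used for neighbours of lncRNAs, the mRNA table listed C1QB and EPHB2 near C1QA and nothing near CSF1R or TLR4. EPHB2, a receptor of ephrin ligands, lies 25442 bases away and had 7.40 FPKM in the immature and 3.51 FPKM in the mature group, so it went against C1QA. The table of 622 lncRNAs listed none within the window of C1QA, CSF1R or TLR4. The nearest lncRNA on the same chromosome lay 1637951 bases from C1QA, 2563311 bases from CSF1R and 2391331 bases from TLR4.

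The rows most like each gene were found by the distance between pairs of log2(FPKM + 1) values in the 2 groups, over rows with a symbol. Nearest to C1QA were PANK1, a pantothenate kinase, at 52.1 and 236.6 FPKM (distance 0.20), LDHA, a lactate dehydrogenase subunit, and BTG1. Nearest to CSF1R were BFIV21, a class I histocompatibility gene, at 14.4 and 54.0 FPKM (0.14), the sialyltransferase ST6GAL1 and MSMO1, an enzyme of sterol synthesis. Nearest to TLR4 were MICAL1 at 0.275 and 2.64 FPKM (0.025), STOML1 and SQLE. With 2 values per gene such likeness is a description of level and ratio only.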

How the data were processed

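Total RNA of rooster livers was depleted of ribosomal RNA and sequenced in 6 strand-specific libraries, 3 per group. The authors' deposited tables give 1 FPKM value per transcript and group. The submitters' processing notes name FastQC, Bowtie2 2.0.6, TopHat, Cufflinks, Cuffdiff and DESeq without their roles. Further columns hold the authors' own fold change, direction, p-value and call, and were not used. Since there is no value per library, no test was made; p-values, SD and n are absent for that reason.

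Differences were computed as log2 of (mature FPKM + 1) over (immature FPKM + 1), which understates the change of low transcripts; a limit of 1 marks rows in counts. Genes of 14 lists (10 of cell types, 4 of pathways) were matched by symbol or by a RefSeq synonym, and a gene with several rows by the row with the highest mean FPKM. Whether every symbol of a list names a chicken gene was not checked. The members and lists were chosen with earlier results of these data known. Genes named are C1QA, CSF1R and TLR4, rows beginning with C1Q or TLR, listed macrophage genes, up to 6 listed genes of each other list by absolute difference, the 3 most similar rows per gene and rows within 100 kb. CCR7, k60, REL, C1S, SLC11A1, CYBA, LAMP1, the complement rows without a symbol and the rows of KEGG terms were named beyond this rule after their values were seen. Calculations used Python 3.11.15, pandas 2.3.3 and numpy 2.4.6 and were tested on simulated data. Alternatives were pseudocounts of 0.1, 0.01 and none, centring on the median, a minimum mean FPKM of 1, limits of 1.5-fold and 4-fold, summed rows, unshared genes, lists without the 3 genes and matching by symbol alone.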

Additional observations from a re-analysis of the deposited data

How the results depend on the processing

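All 3 genes stayed higher in mature livers after centring on the median. A pseudocount cannot change the direction of a difference, and the other settings bear on counts only. With pseudocounts of 0.1 and 0.01 FPKM, the differences were 2.45 and 2.45 for C1QA, 1.96 and 1.97 for CSF1R, and 2.80 and 3.12 for TLR4. With no pseudocount (added once the data had been seen) they were 2.45, 1.97 and 3.16. After centring on the median of all rows they were 1.78, 1.25 and 0.85, so that TLR4 was no longer past 1. The number of listed macrophage genes higher past the limit was 13 and became 10 after centring, with TLR4, SPI1 and CX3CR1 below it. Counts of the other lists after centring, and without the 3 genes, were added once the data had been seen. The macrophage count was 8 at a 4-fold limit and 7 of 7 without genes of another list, which here were all pathway lists. It was 11 of 11 by symbol alone (also added later), and 13 under the other settings. Of all rows, 532 were higher and 441 lower past the limit. These counts were 810 and 668 with a pseudocount of 0.01, 222 and 668 after centring, and 140 and 79 at a 4-fold limit. Centring uses rows selected as differentially expressed and is no measure of library scaling. For 104 other genes (those of the lists, the neighbours, the most similar rows and the KEGG rows), 3 of 312 alternative values changed sign, all after centring, to -0.11 for CCR7, -0.14 for BLK and -0.051 for k60. The values with other pseudocounts among the 312 could not change sign.

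No paired analysis was possible because the deposited tables hold 1 value per group and the replicate numbers carry no values, and no replicate was left out for the same reason. The read counts behind the 0.297 FPKM of TLR4 in immature livers are unknown, and its difference of 1.496 moved to 2.80 with a pseudocount of 0.1.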

Other observations

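Further phagocyte genes outside the macrophage list, noticed after their values were seen, were listed higher in mature livers. SLC11A1, described in the deposited table as a natural resistance-associated macrophage protein and known as a metal transporter of the phagosome membrane, had 3.53 FPKM in the immature and 10.6 FPKM in the mature group. NCF4 of the phagocyte oxidase had 8.24 times as much in mature livers, beside 12.9 times for CYBB. CYBA, a further subunit of this oxidase, had 11.9 FPKM in the immature and 26.9 FPKM in the mature group. On log2(FPKM + 1) its difference was 1.11, against 1.71 for NCF4 and 2.55 for CYBB.

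The chains of C1q are known to assemble in equal numbers, whereas the listed C1QA transcript had about 22 to 23 times the FPKM of the listed C1QB transcript in each group. The table holds 1 transcript for each gene, and other transcripts of C1QB were not analysed here. Whether the deposited C1QB locus also covers C1QC was not settled.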
